A study of Drosophila melanogaster with 4 samples.

Results

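Odorant binding protein genes and chemosensory receptor genes were followed in heads of Drosophila melanogaster males that had eaten strychnine. The genes were chosen by symbol: spots of a cDNA array whose single gene symbol begins with CheB, or with Obp, Or, Gr or Ir and a digit, with a value in each distinct set of arrays. The rule found 12 genes on 38 spots, of 2023 named genes with such values. They were 10 odorant binding protein genes and 2 receptor genes, the odorant receptor gene Or33a and the ionotropic receptor gene Ir47a. The name "chemosensory genes" therefore rests almost wholly on binding proteins, and no gustatory receptor or CheB gene is among the members.

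Heads came from unmated males of Oregon-R, a wild-type laboratory strain, 3 to 4 days old when treatment began and kept 30 to a vial. The treated flies ate food with strychnine at 3.33 mg/ml for 7 days, and the control flies ate normal food for the same time. RNA from pools of treated heads was set against RNA from pools of control heads on 4 two-colour arrays, labelled as 4 biological replicates, with treated RNA in Cy5 on replicates 1 and 2 and in Cy3 on replicates 3 and 4. The labels of replicate 1 give the control flies a slightly shorter time on plain food before treatment than the treated flies, so age may not have been fully matched. A head pool mixes all cell types, so fewer cells of a type and less RNA per cell cannot be told apart.

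Odorant binding proteins are small soluble proteins that support cells secrete into the fluid around the dendrites of olfactory and taste neurons, where they bind small hydrophobic molecules. The neurons themselves carry the receptors: odorant receptors and ionotropic receptors, which are ligand-gated channels, and gustatory receptors. Strychnine tastes bitter to flies and is widely used as a bitter stimulus in Drosophila taste work. The comparison here asks whether transcripts of these families differed between heads of strychnine-fed and normally fed males.

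Replicates 1 and 3 were deposited with identical values at all 7643 spots that had one on each, while the dye labels of the 2 arrays are opposite. These columns were counted once, as the shared set, which left 3 distinct sets: the shared set, replicate 2 and replicate 4. The labels do not say whether a positive log2 ratio means more treated RNA or more Cy5, so a positive value is not called an increase after strychnine below. Each column was centred on its median, and all values below are such centred log2 ratios unless stated. Of 3996 genes and unnamed spot pairs with values in all 3 sets, 409 had a mean apart from 0 at an adjusted p of at most 0.05 (limma, Benjamini-Hochberg over all of them). That is 10.2% of them, and 8.31% were positive and 1.93% negative.

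No chemosensory gene was among them. The count was 0 of 12 members, against 10.2% of all genes and spot pairs (6.97% of named genes), with adjusted p-values from limma between 0.0601 and 0.792. That background itself depended on the setting: 0 genes or pairs passed with scale normalization, with the values as deposited, with single spots and with a correction for position on the slide, and 2 passed without replicate 2. At an unadjusted p under 0.05 there were 5 of the 12, Obp19c, Obp19d, Obp56h, Obp99d and Ir47a, beside 34.4% of all genes and spot pairs. Of the 12 members 8 had the same sign in all 3 sets, beside 54.3% of named genes. The means of 9 members were negative and those of 3 were positive, 3 of the negative ones turning positive with a correction for position on the slide. Among all 2023 named genes 1115 had negative means and 908 positive ones. The means had a median of -0.23 over the members and -0.065 over all named genes. The median size of a member's mean, without its sign, was 0.54, against 0.35 over all named genes, and the median SD over the 3 sets was 0.29, against 0.32.

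**Figure D1:**
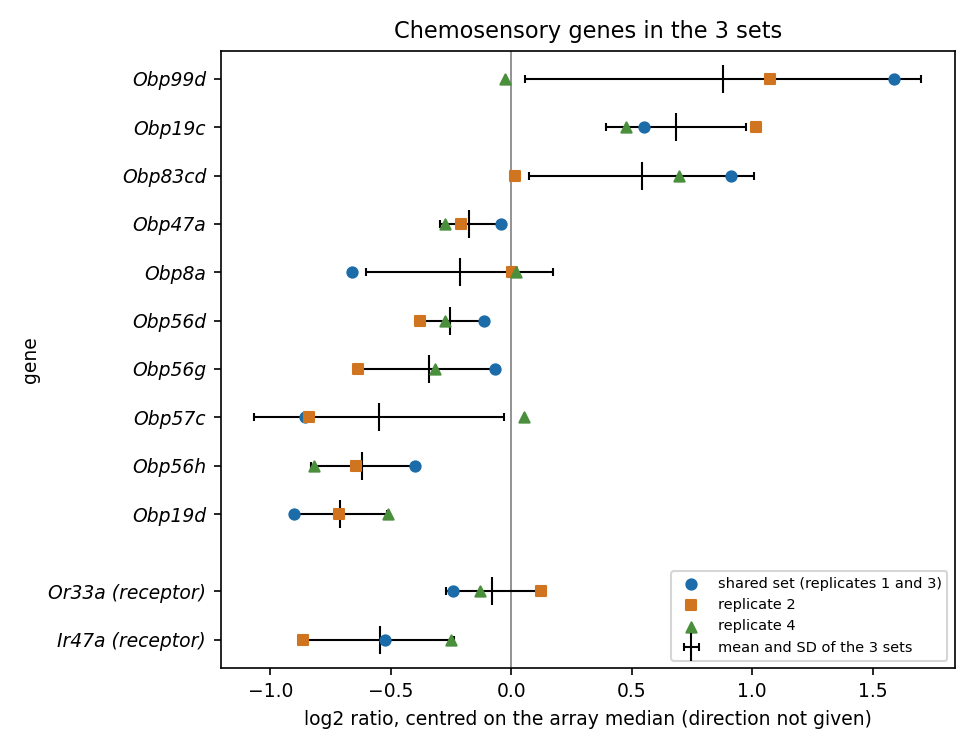
Centred log2 ratios of the 12 chemosensory genes (x axis) in the shared set, replicate 2 and replicate 4 (coloured points), with the mean and SD of the 3 sets in black. Binding proteins are ordered by mean above the 2 receptors. Obp99d, Obp19c and Obp83cd have positive means and the other 9 genes have negative ones.

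The 3 binding proteins with positive means did not behave alike across the sets. Obp19c, one of a row of neighbouring binding protein genes, read 0.55 (shared set), 1.02 (replicate 2) and 0.48 (replicate 4). It was positive in each set, averaging 0.68 ± 0.29 (SD, n = 3 sets; adjusted p = 0.0716, limma), higher than 90.8% of named genes.

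Obp99d, a binding protein of the Minus-C group, which lacks a pair of the family's conserved cysteines, read 1.59 (shared set), 1.07 (replicate 2) and -0.024 (replicate 4). The shared set and replicate 2 were high, and replicate 4 lay at about 0. The mean of 0.88 ± 0.82 (SD, n = 3 sets; adjusted p = 0.100, limma) was the largest of any member, and so was its spread. Without replicate 4, its set near 0, the mean was 1.33 and the adjusted p 0.0392 (limma, 2 sets). In that setting 305 of 4321 genes and spot pairs passed. Obp83cd, a binding protein with a repeated domain, read 0.91 (shared set), 0.016 (replicate 2) and 0.70 (replicate 4). Its mean of 0.54 ± 0.47 (SD, n = 3 sets; adjusted p = 0.153, limma) joined 2 sets well above 0 and replicate 2 near it.

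Among the binding proteins with negative means, Obp19d and Obp56h had the lowest means over the 3 sets, although Obp57c lay below both on replicate 2. Obp19d, found in antennae and in taste bristles, read -0.90 (shared set), -0.72 (replicate 2) and -0.51 (replicate 4). The sets lay close together, averaging -0.71 ± 0.20 (SD, n = 3 sets; adjusted p = 0.0601, limma), the smallest adjusted p of any member, and 8.21% of named genes lay lower. Corrected for position on the slide the mean was -0.14. When spots beyond 3 on the log2 scale were left out of the whole table, the same mean had an adjusted p of 0.0457 (limma). In that setting 662 of 3974 genes and spot pairs passed.

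Obp56h, a gene whose reduced expression changes the cuticular hydrocarbons and mating of Drosophila males, read -0.40 (shared set), -0.64 (replicate 2) and -0.82 (replicate 4). Each set was negative, and the mean was -0.62 ± 0.21 (SD, n = 3 sets; adjusted p = 0.0779, limma), but it was 0.051, and positive in each set, when corrected for position on the slide. Obp57c read -0.85 (shared set), -0.84 (replicate 2) and 0.052 (replicate 4), and averaged -0.55 ± 0.52 (SD, n = 3 sets; adjusted p = 0.161, limma). The shared set and replicate 2 were far from 0 while replicate 4 was near it, with duplicate spots at -0.019 and 0.12. The replicate 4 value of Obp99d, by comparison, was lowered by a single spot at -1.79.

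The other 4 binding proteins lay nearer to 0. Obp56g, which is also known as a seminal fluid protein of Drosophila males, read -0.068 (shared set), -0.64 (replicate 2) and -0.32 (replicate 4), and averaged -0.34 ± 0.28 (SD, n = 3 sets). Obp56d was at -0.11, -0.38 and -0.27 in the same order of sets, and averaged -0.26 ± 0.13 (SD, n = 3 sets). Averaged over their spots both were negative in each set, though not at each place on the slide. Among named genes 28.6% were below 0 in every set and 25.7% above 0.

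Obp8a, another binding protein of the Minus-C group that is known from seminal fluid, was at -0.66 in the shared set and at 0.0035 and 0.018 on replicates 2 and 4. The shared set alone was away from 0, and the mean was -0.21 ± 0.39 (SD, n = 3 sets). Obp47a was at -0.041, -0.21 and -0.27 in the shared set and on replicates 2 and 4, and averaged -0.17 ± 0.12 (SD, n = 3 sets). The adjusted p of these 4 genes ran from 0.279 for Obp56g to 0.548 for Obp47a (limma).

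Both receptors had negative means. Ir47a, a member of the divergent ionotropic receptors, which are found mainly in taste neurons, read -0.53 (shared set), -0.86 (replicate 2) and -0.25 (replicate 4). All 3 sets were negative, averaging -0.55 ± 0.31 (SD, n = 3 sets; adjusted p = 0.117, limma), against -0.073 with position on the slide corrected. Or33a, a receptor gene of antennal olfactory neurons that also express the geosmin receptor Or56a, read -0.24 (shared set), 0.13 (replicate 2) and -0.13 (replicate 4). Its sign varied between sets, and the 3 averaged -0.081 ± 0.19 (SD, n = 3 sets; adjusted p = 0.792, limma), and 49.0% of named genes lay lower.

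Binding proteins and receptors were set against each other within each set, which cancels the centring. The median over the 10 binding proteins was -0.091 in the shared set, against -0.38 for the 2 receptors. On replicate 2 these medians were -0.29 for binding proteins and -0.37 for receptors, and on replicate 4 they were -0.15 and -0.19 in the same order. The binding proteins were thus higher in each set, by 0.29, 0.076 and 0.040, though on replicate 4 they were lower once position on the slide was corrected. The mean difference of 0.14 ± 0.14 (SD, n = 3 sets) was no larger than the spread between the sets. The binding proteins themselves ran from -0.90 to 1.59 in the shared set, from -0.84 to 1.07 on replicate 2 and from -0.82 to 0.70 on replicate 4. Of the 6 receptor values, 1 lay outside the range of the binding proteins of its set, that of Ir47a on replicate 2. With 2 receptors no spread within that family can be judged.

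**Figure D2:**
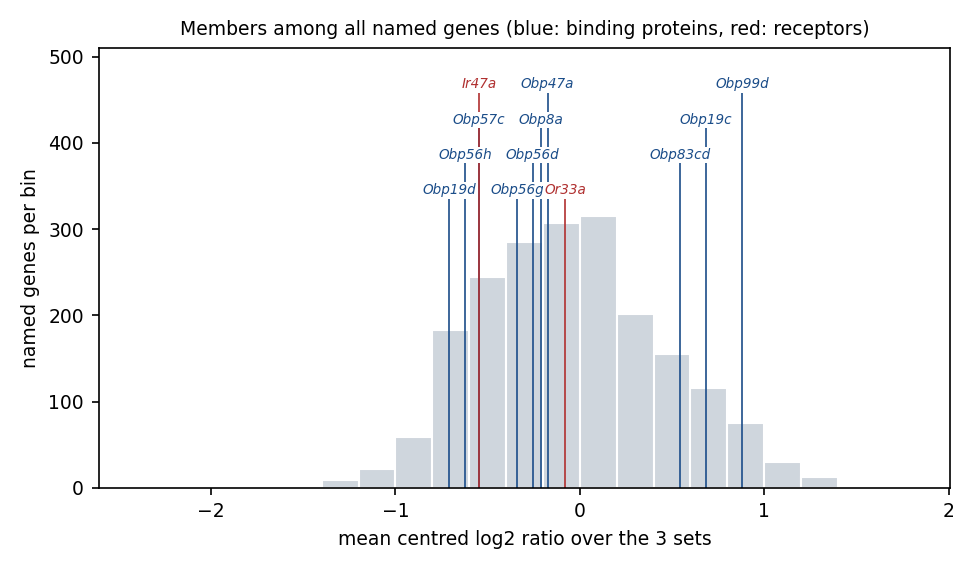
Histogram of the mean centred log2 ratio (x axis, bins of 0.2) of all 2023 named genes (y axis, genes per bin), with vertical lines at the binding proteins in blue and the receptors in red. The members spread from -0.71 to 0.88 within the body of the histogram, which runs from -2.25 to 1.56.

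The members also differed between neighbours in the genome. In the RefSeq annotation of Drosophila no protein-coding gene lies between Obp19c and Obp19d, and their values took opposite signs. Obp19c was above Obp19d by 1.46 (shared set), 1.73 (replicate 2) and 0.99 (replicate 4), a mean difference of 1.39 ± 0.37 (SD, n = 3 sets). With values corrected for position on the slide, the difference was 0.90 ± 0.47 (SD, n = 3 sets) and ran from 0.36 to 1.22. Obp56g and Obp56h are likewise adjacent, and 5 protein-coding genes of the annotation start between Obp56d and Obp56h. All 3 genes of this group had negative means before the position correction, which turned Obp56g and Obp56h positive. Obp56h was below Obp56g by 0.33, 0.0073 and 0.50 in the shared set and on replicates 2 and 4. The pairs were picked after their values were seen, and relatives of a gene family can share sequence with a spotted cDNA, which was not tested.

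Each gene was printed as neighbouring duplicate spots, and 6 genes had such pairs at several places on the slide. The median difference between duplicate spots of the 19 member pairs was 0.24 (shared set), 0.26 (replicate 2) and 0.12 (replicate 4). Over all pairs of the slide it was 0.14, 0.16 and 0.17 in the same order. Of the 6 genes, 5 had means of the same sign at each place.

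Obp56h gave nearly the same mean at both places, -0.61 and -0.63. The pairs of Obp19d agreed on average, at -0.71 each, but not within sets: they were at -1.33 and -0.47 in the shared set and, in the opposite order, at -0.24 and -0.78 on replicate 4. The 3 pairs of Obp56d ran from -0.51 to -0.10, and in the shared set they were at -0.65, 0.28 and 0.032. On replicate 2 the duplicates of its second pair differed by 1.89, the largest difference of any member there. The pairs of Obp19c were at 0.38 and 0.99, but in the shared set they took opposite signs, at -0.215 and 1.32. Obp56g was at 0.050 at one place and at -0.73 at the other, the only change of sign among the 6 genes in means over the sets. The duplicates of its second pair also differed by 1.21 on replicate 2. The pairs of Obp99d were at 1.20 and 0.56, and on replicate 4 the duplicates of the second pair differed by 2.19, one spot reading -1.79 and the other 0.40. That single spot lowered the gene's value on replicate 4: with the median over spots in place of the mean, chosen after seeing the data, the mean of Obp99d was 1.09 and its adjusted p 0.0469 (limma). In that setting 412 of 3996 genes and spot pairs passed.

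**Figure D3:**
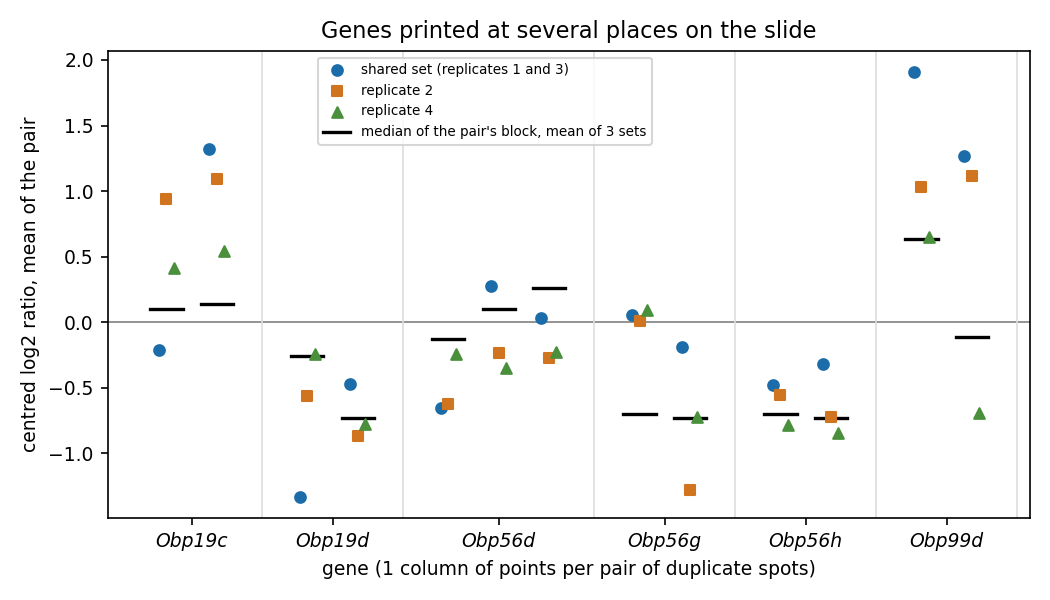
Centred log2 ratio (y axis, mean of a pair of duplicate spots) of the 6 genes printed at several places, with 1 column of points per pair and a colour per set. Black bars give the median of all spots in the pair's block, averaged over the 3 sets. The pairs of Obp56g lie apart, at 0.050 and -0.73, while those of Obp56h agree at -0.61 and -0.63.

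The place of a spot on the slide moved with these values. The layout of the slide was not used here: 48 square blocks in the order of spot numbers were assumed from the number of spots, and each block median and corrected value rests on that reading. Across these 48 blocks, which lie on the same arrays, medians correlated with r = 0.73 for replicates 2 and 4, and the medians of the shared set with r = 0.72 for replicate 2 and 0.66 for replicate 4. Member pairs lay in 12 of the blocks, whose medians averaged over the sets ran from -0.73 to 0.64. Over the 19 pairs, the mean of a pair correlated with its block's median (Pearson's r = 0.70, Spearman's rho = 0.74), as a description. The blocks with Obp56g, Obp56h and Obp47a, and the block with the second pair of Obp19d, were among the lowest, at -0.70 and -0.73.

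When the block median and a smooth trend within the block were subtracted, 8 of the 12 means moved toward 0. The share of all named genes that did so was not counted. The median size of a member's mean fell from 0.54 to 0.25, and over all named genes it also fell, from 0.35 to 0.18. Obp19d was then at -0.14 and Ir47a at -0.073, within 1 SD of 0 (0.17 and 0.23 over the 3 sets). Obp47a, Obp56g and Obp56h turned positive, at 0.44, 0.38 and 0.051. Obp19c moved little, to 0.75 ± 0.31 (SD, n = 3 sets), and was then above 98.9% of named genes. Obp57c stayed negative at -0.66 ± 0.53 (SD, n = 3 sets), then the lowest member, and Obp99d was at 0.43 ± 0.61, with replicate 4 at -0.23.

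No member passed after this correction, in which 0.0% of all genes and spot pairs did (limma, adjusted p of the members from 0.136 to 0.912). At an unadjusted p under 0.05 there were 4 members, Obp19c, Obp47a, Obp56g and Obp57c, beside 20.7% of all genes and spot pairs. The same sign in all 3 sets was found in 7 of the 12 members, beside 43.5% of named genes. Binding proteins then had medians of 0.12, 0.11 and 0.10 in the shared set and on replicates 2 and 4, and receptors had medians of -0.12, -0.21 and 0.17. The difference between binding proteins and receptors was therefore positive in the shared set and on replicate 2, at 0.24 and 0.32, and negative on replicate 4, at -0.072.

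**Figure D4:**
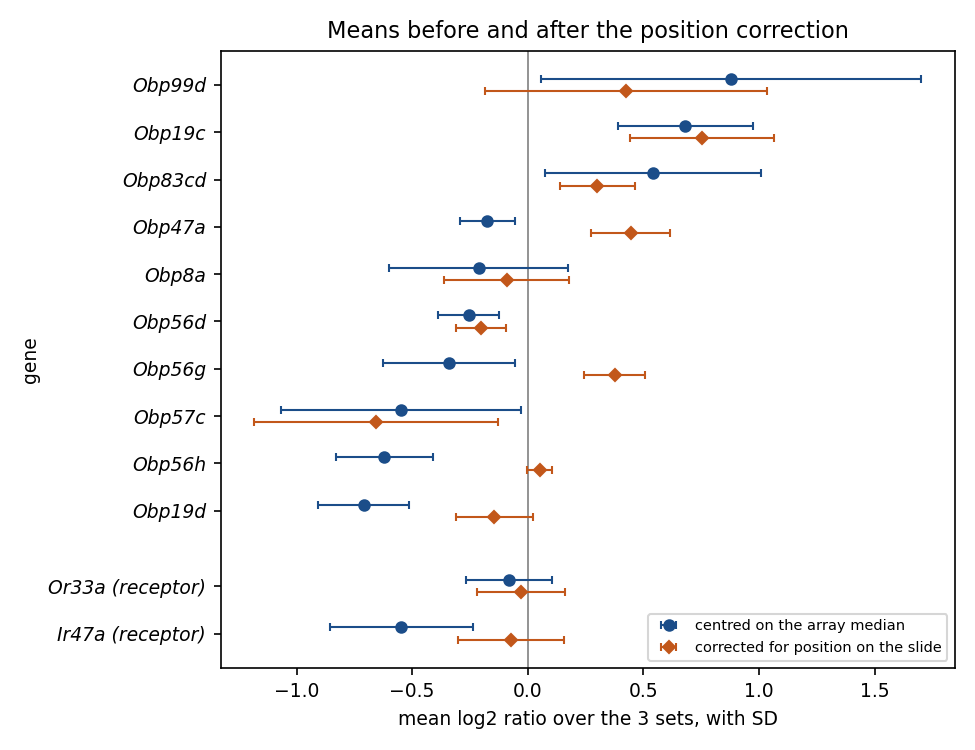
Mean log2 ratio over the 3 sets (x axis, bars are SD, n = 3 sets) of each member, centred on the array median (blue circles) and corrected for position on the slide (orange diamonds). Obp19c stays near 0.7 on both scales, while Obp47a, Obp56g and Obp56h change sign.

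If the deposited ratio is instead Cy5 over Cy3, the treatment effect is the part that changes sign with the dye, which is the difference between replicates 2 and 4 divided by 2. On this reading a positive value means more RNA in strychnine-fed heads. It is not known which dye the shared set carried. The fit gave it a treatment code of 0, which puts any treatment effect of that set into the residual and so widens the error of a gene that does respond. That fit called 0 of 12 members and 0.0% of all genes and spot pairs (limma; 0 members and 4.03% at an unadjusted p under 0.05), and these counts say nothing on whether the members responded. As a description, the values ran from -0.45 ± 0.26 (SE) for Obp57c to 0.55 ± 0.36 (SE) for Obp99d, and the genes with the next largest sizes were Obp83cd at -0.34 and Ir47a at -0.31. The median was -0.029 over the binding proteins, -0.090 over the receptors and -0.035 over all named genes. The value of Obp99d drew on the single spot at -1.79 on replicate 4. With the median over spots, chosen after seeing the data, the contrast of Obp99d was 0.30. With treated RNA of the shared set taken as Cy3, the limma fit called 0 of 12 members and 0.0315% of 3172 genes and pairs, and the members ran from -0.41 ± 0.23 (SE) for Obp83cd to 0.24 ± 0.23 (SE) for Obp19c. Taken as Cy5, it called 0 of 12 members and 0.0501% of 3995, and the members ran from -0.45 ± 0.20 (SE) for Obp57c to 0.68 ± 0.22 (SE; adjusted p = 0.584, limma) for Obp99d. That value of Obp99d also drew on the low spot on replicate 4. Each of these fits rests on 3 sets, so its error is itself poorly known.

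The other 12 of the 24 chemosensory genes with a spot of their own gave no value that could enter these comparisons. Of these, 10 held no value on replicates 1, 2 and 4: Gr61a, Ir76a, Ir93a, Obp19a, Obp19b, Obp44a, Obp56e, Obp59a, Obp84a and Obp99c. Of these 3 arrays, Obp99a and Obp99b had values on replicate 4 only, at 0.058 and 0.60. Further pairs of spots of Obp83cd and Obp57c were left out as well, the first with values on replicate 4 only and the second with none. Values on replicate 3 were not counted for any of these spots. Another 12 spots carried several gene symbols, the first from these families, and were not used. The RefSeq annotation lists 51 genes with an Obp symbol and 186 with an Or, Gr or Ir symbol, so the 10 binding proteins and 2 receptors measured sample the 2 kinds of gene very unequally.

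Genes that work beside the members were sparsely measured. Of 33 genes of chemosensory accessory function, 7 were on the array and 1 had values in all sets, NPFR, the receptor of neuropeptide F, at 0.44 ± 0.28 (SD, n = 3 sets; adjusted p = 0.175, limma) and at -0.15 after the position correction. The antennal binding protein gene lush was printed but held no value. Of 35 phototransduction genes, which serve the other large sense organ of the head, 6 were measured and none passed, with a median of -0.10. The lowest unadjusted p among them was that of rdgB, a phosphatidylinositol transfer protein, at 0.75 ± 0.26 (SD, n = 3 sets; adjusted p = 0.0567, limma). After the position correction rdgB was at 0.31 (adjusted p = 0.258, limma). Next came santa-maria, a carotenoid scavenger receptor, at -1.08 ± 1.02 (SD, n = 3 sets). It read -0.44 (shared set), -0.54 (replicate 2) and -2.25 (replicate 4). Then came rdgA, a diacylglycerol kinase, at 0.49, and Galphaq, the G protein subunit downstream of rhodopsin, at -0.44. Of 32 genes of the sensory cilium and dendrite, 4 were measured and none passed, all of them Oseg genes of intraflagellar transport, with a median of 0.025. Oseg1 was at 0.41, Oseg6 at -0.31, Oseg4 at 0.053 and Oseg5 at -0.0028. The position correction turned the sign of rdgA (-0.13), Oseg6 (0.14), Oseg4 (-0.26) and Oseg5 (0.18).

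Markers of the head could be checked only in part. None of 5 photoreceptor markers and none of 6 antenna markers had values in all sets, and the neuron and glia lists gave 1 gene each, nSyb at -0.34 and Gs2 at -0.72. The value of nSyb was negative on replicate 2 alone, at -1.205, beside 0.17 in the shared set and 0.011 on replicate 4. Among markers of other tissues, 3 of 5 gut genes were measured, of which Jon65Aiii and yip7 passed at 1.34 and 1.56 while Jon66Cii was at -0.58. After the position correction Jon65Aiii was at 0.68 and yip7 at 0.85, neither past the threshold (limma, adjusted p = 0.136 and 0.205). Of 5 male reproductive tract genes 3 were measured, Mst77F at 0.86, past the threshold (limma, adjusted p = 0.0445), Acp32CD at 0.44 and Mst85C at -0.57. With the position correction Mst77F no longer passed (limma, adjusted p = 0.113) and Mst85C was at 0.096. Obp56g and Obp8a, the members also known from seminal fluid, had means of -0.34 and -0.21, and the part of other tissues in their values was not tested.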

How the data were processed

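Head RNA was measured on 4 two-colour spotted cDNA arrays. Images were quantified with GenePix Pro 6.0, ratio-normalized with Acuity 4.0 and analysed with SAM 3.0, per the series' design text, with filters on saturation, flags, regression R2 (at least 0.6) and signal to noise (at least 3). The design text also gives a minimum raw intensity of 100 and a minimum of 3 arrays. How these limits were applied to the deposited values was not checked. The deposited values are log2 ratios per spot: the base is inferred from the largest value, 16.61, the log2 of a round ratio, and the sources used here state neither base nor centring nor direction. Channel intensities were not used here, so brightness is unknown, and the number of arrays limits the precision. Column medians were -0.121, -0.379, -0.179 and -0.621 for replicates 1 to 4.

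Of 27648 spots 15116 had 1 symbol, 102 several and 12430 none in the platform annotation, and 14894 matched a gene ID of RefSeq assembly Release 6 plus ISO1 MT, with 0 symbols changed. Columns were centred on their medians over spots. Spots with values in all 3 sets were averaged per gene, and unnamed spots per duplicate pair (2023 genes, 1973 pairs).

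The mean of the 3 sets against 0, and the dye contrast, were fitted with limma 3.58.1 in R 4.3.3 (lmFit, eBayes, two-sided, Benjamini-Hochberg over all 3996, threshold 0.05), both tested on simulated data. In the contrast the shared set had a treatment code of 0, which makes it a weak test, so it was also fitted with either dye for that set. With 3 distinct sets, a gene's own spread in the fit of the mean had 2 residual degrees of freedom. The p-values also draw on the spread pooled over all genes and pairs, with 5.10 prior degrees of freedom (4.32 in the contrast). The position correction subtracted each block's median and a robust loess over rows and columns (span 0.4, blocks of at least 30 values). Alternatives were uncentred values, scale normalization, single spots, leaving out spots beyond 3, values in 2 of 3 sets, leaving out each replicate, and all 4 columns as labelled. The median over spots and centring on named genes were added after seeing the data. The members and gene lists were chosen with earlier results of these data known. Every member with values in all sets is named, and up to 4 genes of each accessory list by unadjusted p. No sequence is printed.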

Additional observations from a re-analysis of the deposited data

How the results depend on the processing

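Of 13 alternatives, 11 could be run for the dye contrast, and 0 chemosensory genes passed in each, which says little where the shared set is coded 0. In the mean of the sets 0 passed in the alternatives other than the following. With spots beyond 3 left out 1 passed, Obp19d (662 of all 3974 genes and pairs passed). With the median over spots 1 passed, Obp99d (412 of all 3996 passed). Leaving out 1 replicate gave 0 to 1, the 1 being Obp99d without replicate 4 (305 of all 4321 passed). With all 4 columns as labelled, which counts the shared set as 2 samples, 5 passed (897 of all 3171 genes and pairs passed). These were Obp19c, Obp19d, Obp56h, Obp99d and Ir47a. The count over all genes and pairs was 409 and fell to 0 with the values as deposited, scale normalization, the position correction and single spots. Without 1 replicate it lay between 2 (without replicate 2, 4233 tested) and 408. Without replicate 1, which leaves 3172 tested, it was 84. For the dye contrast the count over all was 0, and 14 with the values as deposited. Without replicate 1 it was 1 and without replicate 3 it was 2. Without replicate 2 or 4 that contrast has no residual degrees of freedom and was not run.

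Of 156 member means recomputed, 3 changed sign, all under the position correction: Obp47a at 0.44, Obp56g at 0.38 and Obp56h at 0.051. Of 132 member contrasts, 9 changed sign. With the values as deposited Obp19d was at 0.020, Obp56d at 0.070 and Obp8a at 0.11. Or33a was at -0.19 after the position correction. Over the fits without replicate 1 or 3, Obp47a lay between -0.041 and 0.074, Obp56h between -0.031 and 0.15, Obp8a between -0.17 and 0.15 and Obp56d between -0.10 and 0.014, and with centring on named genes Obp8a was at 0.0093. Using deposited values, or centring on named genes, shifts the contrast of every gene by the same amount, so those sign changes follow from the centring. The cause of the other sign changes was not tested. The mean difference between binding proteins and receptors, 0.14, lay between 0.098 and 0.18 in every alternative run. Centring moved the median over all genes and pairs, which was -0.40 as deposited and -0.025 centred. Each array already holds a treated and a control pool, so each log2 ratio is itself a paired value. No further pairing between arrays was possible, as there is 1 group.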
